A study of Homo sapiens with 12 samples.

Results

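CES1 on chromosome 16 encodes carboxylesterase 1, and next to it lie its pseudogenes CES1P1 and CES1P2 and the related gene CES5A. These 4 genes, of 60583 counted in the series, were taken by their symbols. They were selected on the counts of CES1P2, which had the largest rise of any gene in the libraries labelled siINTS11, so its rise is described here and not tested. The assay was TT-seq: RNA labelled with 4-thiouridine (4sU), which cells build into the RNA they are making, is fragmented, captured on beads and sequenced, so that reads report new RNA. All cells were U2OS, a human osteosarcoma line, or U2OS-AsiSI, the same line carrying AsiSI-ER, a restriction nuclease fused to a receptor domain, and all were grown in the same serum-containing medium. Cells had either siCtrl, a control siRNA, or siINTS11, an siRNA against INTS11, and RNA was taken 48 hours after transfection. Both U2OS-AsiSI groups also had OHT (4-hydroxytamoxifen, which moves such a fusion into the nucleus) for 1 hour, and neither U2OS group is labelled with it. There were 3 replicates in each of 4 groups, 12 libraries in all. Line, nuclease and OHT therefore differ together and cannot be told apart, and the labels do not say whether U2OS-AsiSI is a clone or whether replicates came from separate cultures, so p-values measure only the spread between these libraries.

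Carboxylesterases are serine hydrolases that cut ester and amide bonds. CES1 is the main one of the human liver, where it sits in the endoplasmic reticulum, activates or inactivates many ester drugs and takes part in cholesteryl ester and triacylglycerol turnover. Macrophages express it too. CES5A encodes a secreted relative. CES1P1 and CES1P2 are unprocessed pseudogenes, copies of the gene with its exons and introns that are not known to give a working enzyme. INTS11 is the endonuclease of Integrator, a complex that binds RNA polymerase II and cuts nascent RNA, at small nuclear RNA genes and near the starts of many other genes. The study's title concerns Integrator and the processivity of the polymerase.

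The members were first compared in sequence, because reads from near-identical copies can be placed in the wrong gene. All sequences are from GENCODE release 29 transcripts (GRCh38), written 5′ to 3′ along the gene's own strand. The first set is shown because it holds the active site: capitals mark the 18 bases that code for the active-site serine motif in CES1 and the bases aligned to them.
CES1 (exon 5, chr16:55821374-55821415, minus strand): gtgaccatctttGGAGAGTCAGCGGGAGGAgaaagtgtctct
CES1P1 (exon 5, chr16:55772475-55772516, plus strand): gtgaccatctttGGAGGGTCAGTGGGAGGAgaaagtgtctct
CES5A (exon 5, chr16:55865969-55866010, minus strand): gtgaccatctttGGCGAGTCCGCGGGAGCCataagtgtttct
CES1P1 differed from CES1 at 2 of these 42 bases and CES5A at 7. The annotated CES1P2 transcript had no counterpart to this stretch, and the rest of the span of CES1P2 was not compared. The transcript lacked 202 bases of CES1 (bases 817 to 1018 of the CES1 transcript), which include the whole of exon 5. The break lies between its own bases 279 and 280. It also lacked counterparts to exons 1 and 2.

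The second set is shown because it tells the copies apart: it is the 60-base window in which CES1P2 differed most from CES1. Capitals mark the 19 positions at which the 3 sequences are not all alike.
CES1P2 (exon 6, chr16:55740403-55740462, plus strand): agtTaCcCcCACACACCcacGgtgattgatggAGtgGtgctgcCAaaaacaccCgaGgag
CES1P1 (exon 9, chr16:55783599-55783658, plus strand): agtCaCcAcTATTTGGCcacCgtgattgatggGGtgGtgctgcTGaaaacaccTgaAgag
CES1 (exon 9, chr16:55812984-55813043, minus strand): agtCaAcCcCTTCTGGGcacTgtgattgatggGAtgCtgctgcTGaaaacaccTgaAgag
Here CES1P2 differed from CES1 at 17 bases and from CES1P1 at 14. Over their aligned exons the copies were closer. CES1P2 matched CES1 at 91.3% of 1240 bases and CES1P1 at 91.5%, while CES1P1 matched CES1 at 96.3% of 1701. Of all 50-base windows in the transcript, 12.7% of those of CES1P2 also occurred exactly in a transcript of CES1 or CES1P1. The share was 40.2% for CES1P1 and 31.5% for CES1. With 100-base windows these shares were 2.71%, 24.9% and 19.7%. How reads that match several places were handled is not given in the sources used here, so reads in exons of CES1P1 and CES1 are uncertain to that extent. Exons made up 5.65% of the span of CES1P2 and 5.1% of that of CES1P1, and the introns, which make up the rest of the counted span, were not compared in sequence.

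The 4 genes do not overlap one another or any other gene in the tables. CES1P2 (ENSG00000260765.2, chr16:55728115-55750111, 21997 bp, unprocessed pseudogene) and CES1P1 (ENSG00000228695.10, chr16:55760566-55793960, 33395 bp, transcribed unprocessed pseudogene) lie on the plus strand, with a gap of 10454 bp. CES1 (ENSG00000198848.12, chr16:55802851-55833337, 30487 bp) and CES5A (ENSG00000159398.15, chr16:55846154-55956031, 109878 bp) lie on the minus strand. CES1P1 and CES1 point towards each other across 8890 bp, and a further 12816 bp separate CES1 from CES5A. RefSeq (GRCh38.p14) lists CES1P2 as a transcribed pseudogene whose span begins 3190 bp before the one counted here. The library preparation kept strand, but the strand setting of the counting is not given in the sources used here. Near the cluster, minus-strand genes inside the spans of plus-strand genes had few reads. AC009102.4 had 2 to 14 inside GNAO1, which had 1424 to 5423. MMP2-AS1 had 0 to 2 inside MMP2, which had 1472 to 2368. At the members no gene overlaps, and whether reads from their opposite strand were counted was not tested there.

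Library totals ran from 20704611 to 38065726 counts, with 28374 to 29834 genes detected, and replicates differed by more than sampling noise in every group. INTS11, the targeted gene, went from 9.68 ± 0.699 to 7.36 ± 0.426 CPM (counts relative to library size with TMM, a trimmed mean of M-values; SD, n = 3) in U2OS, a log2 fold change of -0.42 (edgeR adjusted p 6.08e-05, SE 0.09). In U2OS-AsiSI it was 10.1 ± 0.735 and 9.27 ± 0.241 CPM, with a log2 fold change of -0.13 (edgeR adjusted p 0.172, SE 0.08) that turned to 0.06 when libraries were scaled by their totals alone, so siINTS11 below means the libraries labelled with it. Mature INTS11 mRNA and INTS11 protein were not measured. Of 8 mesenchymal markers 7 were above 1 CPM in every group. Their summed level was 1530 to 1630 CPM under siCtrl and 1140 to 1220 under siINTS11 in U2OS, and 1430 to 1470 against 1100 to 1150 in U2OS-AsiSI. Long genes weigh most in these sums. With CPM per kilobase of gene span the sums were 33.1 to 37.7 and 31.1 to 32.2 in U2OS. In U2OS-AsiSI they were 33.4 to 35.1 and 32.3 to 36.5, which overlap. Hepatocyte markers, of interest because hepatocytes express CES1, summed to 0.952 to 2.64 CPM. None of the 8 was above 1 CPM in the U2OS groups and 1 in the U2OS-AsiSI groups. SERPINA1 had 16 to 49 reads, APOA1 4 to 11, and ALB 0 to 3. Of 7 monocyte and macrophage markers 2 exceeded 1 CPM (CSF1R and ITGAM), the sum ran from 7.01 to 9.58 CPM, and CD68 and LYZ had at most 3 and 2 reads. Among epithelial markers 4 of 5 exceeded 1 CPM, with sums of 84.8 to 103 CPM under siCtrl and 101 to 136 under siINTS11. The part of these levels in the members' values was not tested.

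CES1P2 was nearly silent under siCtrl and had at least 318 reads in every siINTS11 library of both lines. Counts per gene do not show how these reads lie along it. In U2OS it had 2, 7 and 5 reads in the 3 siCtrl libraries and 385, 333 and 318 in the siINTS11 libraries. In U2OS-AsiSI the reads numbered 25, 15 and 22 under siCtrl and 663, 564 and 692 under siINTS11. No siCtrl library came near a siINTS11 library: the lowest siINTS11 level was 51.3 times the highest siCtrl level in U2OS and 27.3 times in U2OS-AsiSI. The mean level went from 0.149 ± 0.0668 to 10.9 ± 0.739 CPM (SD, n = 3) in U2OS. In U2OS-AsiSI it went from 0.707 ± 0.207 to 23.9 ± 0.854 CPM. In bulk RNA, more transcription in each cell and transcription in more cells cannot be told apart.

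The fitted log2 fold change of CES1P2 was 6.08 (SE 0.19, 67.9-fold) in U2OS and 5.09 (SE 0.12, 34.1-fold) in U2OS-AsiSI. It ranked first by fold change among 20441 genes tested in U2OS-AsiSI and among 20687 in U2OS. The next gene was LINC01647 at 4.36 (SE 0.28) in U2OS-AsiSI and MAG at 5.06 (SE 0.69) in U2OS. Where the higher group had a mean of 100 reads or more, the next was SH2D2A in both lines, at 4.19 and 4.35. These values chose the gene, or repeat the contrast in the other line for a gene already known to lead it, and carry no test. At least 8-fold rises were seen in 0.235% of genes tested in U2OS-AsiSI and 0.338% in U2OS. The read density of CES1P2 reached at most 0.0315 reads per base.

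**Figure D1:**
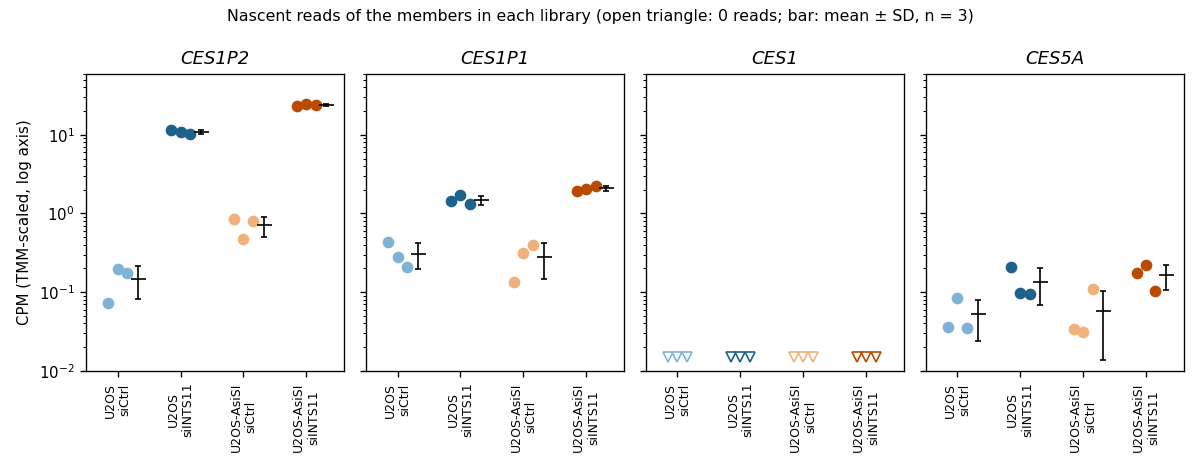
Level of each member in each library, in CPM on a log axis, by group, with the mean and SD (n = 3) as black bars and open triangles for 0 reads. CES1P2 lies between 10.1 and 24.8 CPM in the 6 siINTS11 libraries and below 1 CPM in the 6 siCtrl libraries, and CES1 has 0 reads throughout.

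CES1P1, the other pseudogene, moved the same way at a lower level. The sequence shared between the copies bears on its reads, and whether some were misplaced from CES1P2 was not tested. It had 12, 10 and 6 reads under siCtrl and 48, 52 and 41 under siINTS11 in U2OS. The U2OS-AsiSI libraries had 4, 10 and 11 reads under siCtrl and 55, 47 and 66 under siINTS11. The siRNA groups did not overlap in either line, but the share of all genes without overlap is not given here. The mean level rose from 0.31 ± 0.115 to 1.49 ± 0.198 CPM (SD, n = 3) in U2OS, with a log2 fold change of 2.23 (4.69-fold, edgeR adjusted p 7.27e-10, SE 0.26), higher in 3 of 3 libraries. In that comparison 34.5% of the genes tested were called higher and 32.4% lower. CES1P1 passed the count filter only through its siINTS11 libraries, so a gene of this kind could enter the test only if it differed. In U2OS-AsiSI, where the choice of members used the contrast, the level was 0.283 ± 0.136 and 2.08 ± 0.17 CPM and the log2 fold change 2.87 (SE 0.26, 7.33-fold), beside 35.4% of genes called higher and 32.6% lower. By fold change CES1P1 ranked 61st in U2OS-AsiSI and 229th in U2OS.

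CES1, the parent gene, had 0 reads in all 12 libraries, of 357187051 counts in all. A count of 0 allows up to 3 counts, or 0.0848 to 0.132 CPM per library, and 0.00278 to 0.00433 RPKM (CPM per kilobase of gene span). That limit covers counting error only. Of 9272 protein-coding genes spanning at least 30 kb, 303 (3.27%) likewise had 0 reads in all 12 libraries. In no library did CES1 stand above that limit, reads lost in mapping aside. A change below the limit was not detectable at this depth, and a fold change of CES1 is not given.

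CES5A was close to the floor. In U2OS it had 1, 3 and 1 reads with siCtrl, then 7, 3 and 3 with siINTS11. In U2OS-AsiSI they were 1, 1 and 3 against 5, 5 and 3. The siRNA groups met at 3 reads in both lines. Summed over the libraries, 5 reads stood against 13 in each line, a ratio per total count of 2.81 in U2OS (exact 95% interval 0.939 to 10.1) and 3.28 in U2OS-AsiSI (1.1 to 11.7), intervals that cover counting error only. CES5A did not pass the count filter, and without a filter its log2 fold change in U2OS was 1.23 (edgeR adjusted p 0.204, SE 0.76). Of the 4 members, then, 2 passed the filter in the siINTS11 comparisons, 1 lay near the limit of detection and 1 was not detected.

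Levels were compared between genes per length, as RPKM. In U2OS siCtrl, CES1P1 (0.00929 ± 0.00345 RPKM, SD, n = 3) and CES1P2 (0.00677 ± 0.00304) did not differ beyond their spread, and CES5A stood at 0.000474 ± 0.000258. In U2OS-AsiSI siCtrl the order was CES1P2 (0.0321 ± 0.0094), CES1P1 (0.00849 ± 0.00406) and CES5A (0.00053 ± 0.000405), and the lowest CES1P2 library, 0.0213, lay above the highest CES1P1 library, 0.012. Under siINTS11 the order was the same in both lines. CES1P2 stood at 0.495 ± 0.0336 RPKM in U2OS and 1.09 ± 0.0388 in U2OS-AsiSI, CES1P1 at 0.0445 ± 0.00594 and 0.0623 ± 0.00508, and CES5A at 0.00123 ± 0.000602 and 0.00151 ± 0.000538. Within a single library CES5A and the undetected CES1 cannot be ordered. CES5A reached at most 0.002 RPKM in any library, and the limit for CES1 in a library was 0.00278 or more. A limit for CES1 over the libraries of a group was not computed, so their group levels were not ordered. Under siINTS11, CES1P2 had 11.2 ± 1.33 times the reads per kilobase of CES1P1 in U2OS and 17.5 ± 1.36 times in U2OS-AsiSI.

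CES1P2 held most of the cluster's reads under siINTS11. Its share of the reads of the 4 genes in U2OS siCtrl replicates 1 to 3 was 13.3% (Wilson 95% interval 3.74 to 37.9), 35.0% (18.1 to 56.7) and 41.7% (19.3 to 68.0). In U2OS siINTS11 it was 87.5% (84.1 to 90.3), 85.8% (82.0 to 88.9) and 87.8% (84.1 to 90.8). The U2OS-AsiSI siCtrl libraries gave 83.3% (66.4 to 92.7), 57.7% (38.9 to 74.5) and 61.1% (44.9 to 75.2). The shares in U2OS-AsiSI siINTS11 were 91.7% (89.5 to 93.5), 91.6% (89.1 to 93.5) and 90.9% (88.7 to 92.8). These intervals cover counting error only, and the share is that of the gene the choice was made on. The siCtrl shares rest on 12 to 36 reads each and vary widely, while the siINTS11 shares lie within a few points of each other.

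**Figure D2:**
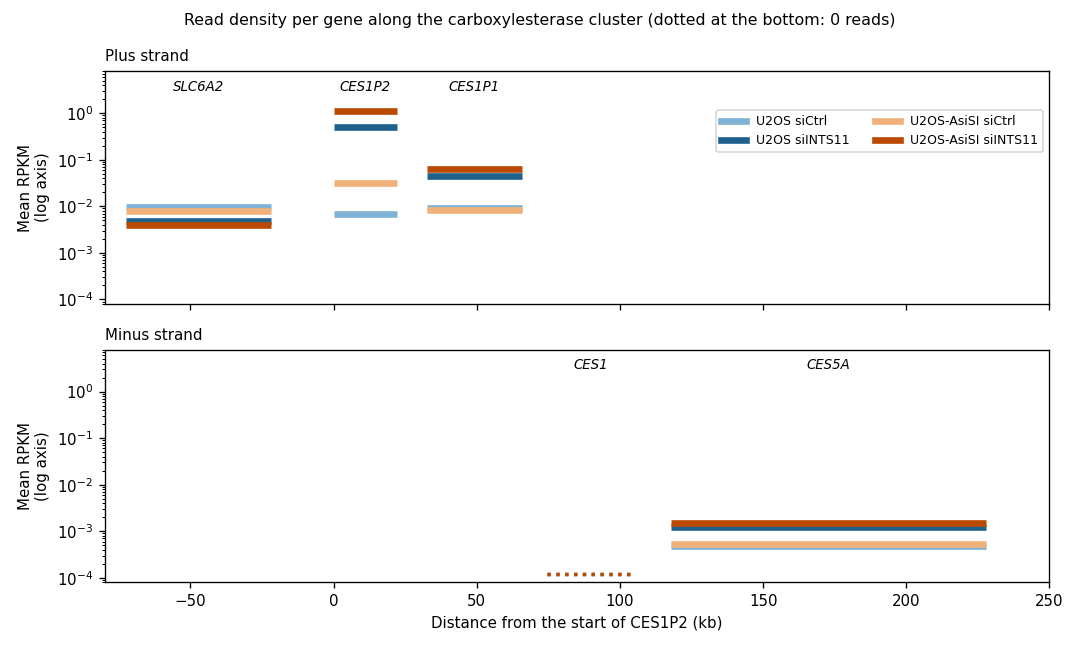
Mean read density (RPKM, log axis; n = 3 libraries a group) of each gene over 5 kb, drawn over its span at its distance in kilobases from the start of CES1P2, by strand. CES1P2 and CES1P1 stand higher in the siINTS11 groups (dark colours) than in siCtrl, SLC6A2 lower, and CES1 is drawn dotted at the bottom because it has 0 reads.

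The lines were then compared with each other. The libraries that picked CES1P2 enter these tests, which bears on its values. Under siCtrl, CES1P2 was higher in U2OS-AsiSI than in U2OS, 0.707 ± 0.207 against 0.149 ± 0.0668 CPM (SD, n = 3), by a log2 fold change of 2.16 (4.47-fold, edgeR adjusted p 4.29e-05, SE 0.39). All 3 U2OS-AsiSI libraries (0.848, 0.47 and 0.803 CPM) lay above the 3 U2OS libraries (0.0728, 0.198 and 0.176). Of the 19935 genes tested there 17.8% were called higher and 0.311% were at least 2-fold higher, and CES1P2 had the largest fold change. CES1P2 passed the count filter here only through its U2OS-AsiSI libraries, which also entered the choice of members, so its p-value is limited in the way given for CES1P1 above. CES1P1 did not pass the filter in this comparison. Without a filter its log2 fold change was -0.12 (edgeR adjusted p 0.894, SE 0.41), with a 95% interval from -0.93 to 0.69.

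Under siINTS11, a comparison added after the values were seen, CES1P2 was again higher in U2OS-AsiSI, by 1.17 on the log2 scale (2.24-fold, edgeR adjusted p 1.61e-17, SE 0.07), with 3 of 3 libraries above all U2OS libraries. The reads of CES1P2 in these libraries led to its choice, so its p-value is not independent of that choice. CES1P1 was higher by 0.53 (edgeR adjusted p 0.00841, SE 0.16). That call was lost with DESeq2 (0.52, adjusted p 0.0609), without replicate 3 of U2OS siINTS11 (0.44, adjusted p 0.0524) and without replicate 3 of U2OS-AsiSI siINTS11 (0.46, adjusted p 0.0581). Among 20802 genes tested 22.2% were called higher.

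The siINTS11 effect itself was not shown to differ between the lines. For CES1P2 the difference of log2 fold changes, U2OS-AsiSI minus U2OS, was -1.03 (edgeR adjusted p 0.14, SE 0.39), with a 95% interval from -1.80 to -0.26 and an unadjusted p of 0.0137. For CES1P1 it was 0.61 (edgeR adjusted p 0.474, SE 0.43), with a 95% interval from -0.24 to 1.46. In this test 0.762% of 21521 genes were called higher and 3.1% lower. This split depended on the settings: 19.7% of the called genes were higher, against 39.6% with median-of-ratios size factors and 67% where only genes with a mean of 50 reads were tested. In CPM the increments were 10.7 (SE 0.428) in U2OS and 23.2 (SE 0.507) in U2OS-AsiSI for CES1P2, and 1.18 (SE 0.132) and 1.8 (SE 0.125) for CES1P1.

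**Figure D3:**
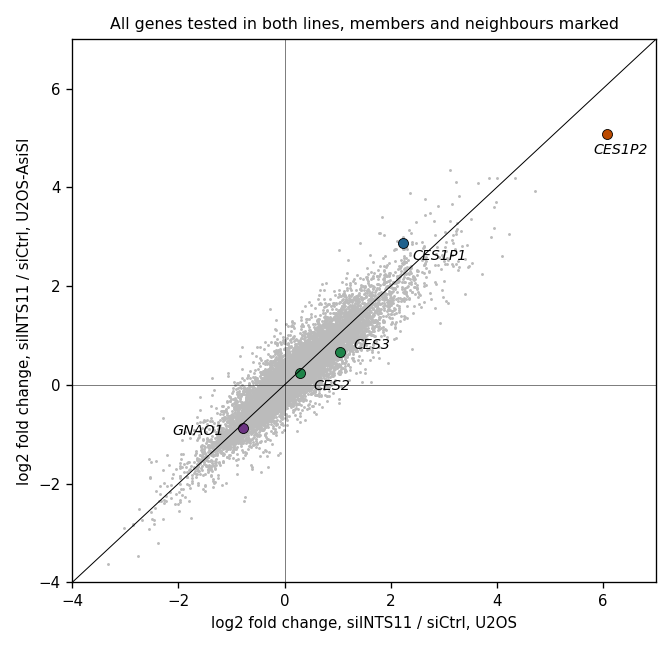
Log2 fold change after siINTS11 in U2OS (x axis) and U2OS-AsiSI (y axis) of all genes tested in both lines (grey), with the line of equal change. CES1P2 stands at the far end at 6.08 and 5.09, CES1P1 at 2.23 and 2.87, and GNAO1, CES2 and CES3 are marked for comparison.

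**Figure D4:**
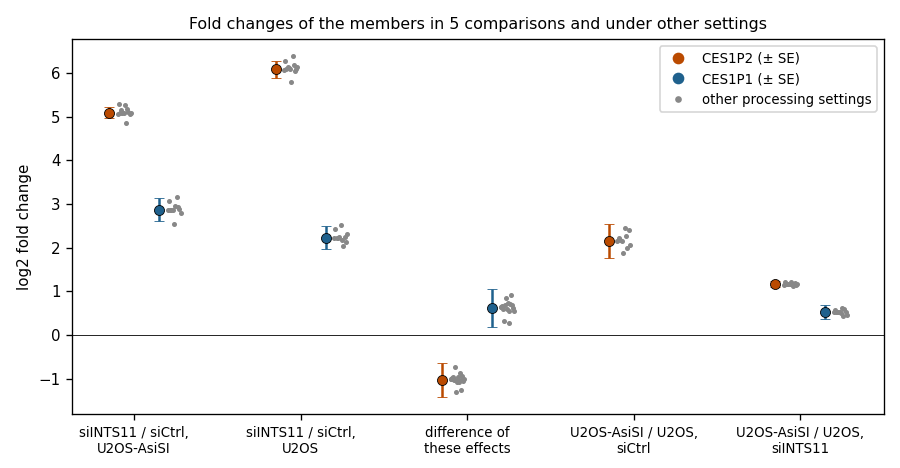
Log2 fold changes of CES1P2 and CES1P1 (± SE) in 5 comparisons, with small grey points for the other processing settings. Every setting plotted keeps the sign of its comparison, and the values for CES1P2 in U2OS-AsiSI lie between 4.85 and 5.28.

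The nearest protein-coding gene on either side of the cluster did not share the rise. Upstream on the same strand, 21922 bp before CES1P2, lies SLC6A2, which encodes the noradrenaline transporter. In U2OS it had 19, 13 and 12 reads with siCtrl and fewer, 8, 8 and 7, with siINTS11. It passed the count filter only through the siCtrl libraries, where it is higher, and its log2 fold change was -1.01 (edgeR adjusted p 0.0109, SE 0.35). In U2OS-AsiSI the reads were 8, 13 and 14 against 4, 6 and 6, and it passed no filter there (-0.98, SE 0.43, edgeR adjusted p 0.055 without one). Per kilobase, CES1P2 had 104 ± 7.66 times the reads of SLC6A2 in U2OS siINTS11 (SD, n = 3) and 0.813 ± 0.514 times in U2OS siCtrl. On the far side, CES5A ends 227.9 kb from the start of CES1P2. The next gene there, AC040168.1, lies on the strand of CES5A, begins at 255.9 kb and is not listed as protein-coding. It rose by 0.82 (edgeR adjusted p 1.04e-05, SE 0.15) in U2OS and by 0.51 (edgeR adjusted p 0.0131, SE 0.18) in U2OS-AsiSI. The nearest protein-coding gene on that side, GNAO1, begins at 463.4 kb and encodes a G protein alpha subunit. It fell from 153 ± 4.15 to 90.5 ± 1.51 CPM in U2OS, with a log2 fold change of -0.79 (edgeR adjusted p 3.98e-21, SE 0.04). In U2OS-AsiSI it fell from 130.0 ± 9.81 to 70.5 ± 6.83 CPM, with a log2 fold change of -0.87 (edgeR adjusted p 3.25e-14, SE 0.06).

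Within 500 kb of the cluster the tables list 29 other genes, 17 on the plus strand. In U2OS-AsiSI 8 of them were tested: 4 were called higher and 3 lower, with a median log2 fold change of 0.18 against 0.03 over all genes. In U2OS 9 were tested, 3 called higher and 4 lower, with a median of 0.02 against 0.02. Of all genes tested, 35.4% were called higher and 32.6% lower in U2OS-AsiSI, and 34.5% and 32.4% in U2OS. The largest rise in the window outside the cluster was that of AC109462.1, an antisense transcript, at 1.15 (edgeR adjusted p 4.28e-10, SE 0.12) in U2OS-AsiSI and 1.20 (edgeR adjusted p 1.68e-12, SE 0.11) in U2OS. The others called higher in U2OS-AsiSI, named after their values were seen, were AC040168.1 (0.51), MMP2 (0.45), which encodes a matrix metalloproteinase, and LPCAT2 (0.42), an enzyme of phospholipid synthesis. In U2OS they stood at 0.82, 0.12 and 0.04, and LPCAT2 was not called there (edgeR adjusted p 0.813). GNAO1 and NUDT21 (-0.20) were among those lower in U2OS-AsiSI. Under library totals alone NUDT21 stood at -0.01 in U2OS-AsiSI and 0.09 in U2OS and was called in neither. That scaling moved the median of all genes to 0.22 in each line, and fold changes here are relative to the typical gene.

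Other carboxylesterase genes were low or changed little. CES2, an intestinal and hepatic enzyme with its own drug substrates, rose from 15.5 CPM at most under siCtrl to at least 17.3 under siINTS11 in U2OS, by 0.30 on the log2 scale (edgeR adjusted p 0.000224, SE 0.07), and by 0.24 (edgeR adjusted p 0.000864, SE 0.06) in U2OS-AsiSI. CES3 had 10, 25 and 10 reads under siCtrl and 32, 35 and 32 under siINTS11 in U2OS and rose by 1.05 (edgeR adjusted p 0.000499, SE 0.26). It rose by 0.66 (edgeR adjusted p 0.0151, SE 0.24) in U2OS-AsiSI, where the reads were 25, 17 and 23 against 36, 20 and 37 and the raw counts overlapped. CES4A had at most 5 reads in any library and was not tested. So 2 of the 3 relatives outside the cluster were tested and both were called higher, where 35.4% and 34.5% of all genes were.

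Genes of neutral lipid and cholesteryl ester turnover, the pathway in which CES1 acts, went both ways. Of 17 tested in U2OS-AsiSI 8 were higher, 4 lower and 5 not called, with a median log2 fold change of 0.11 against 0.03 over all genes. In U2OS 18 were tested, 9 higher and 6 lower, with a median of 0.13 against 0.02. Over all genes 35.4% were higher and 32.6% lower in U2OS-AsiSI, and 34.5% and 32.4% in U2OS. With library totals alone the counts were 13 higher and 2 lower in U2OS-AsiSI and 12 and 3 in U2OS. LIPC, hepatic lipase, rose by 1.13 (edgeR adjusted p 3.6e-16, SE 0.07) in U2OS and by 1.33 (SE 0.07) in U2OS-AsiSI. DGAT2, which makes triacylglycerol, rose by 0.96 (SE 0.07) and 1.12 (SE 0.07), and PNPLA2, the lipase that starts its breakdown, by 0.78 (SE 0.09) and 0.78 (SE 0.08). Of the genes that fell, named after their values were seen, DGAT1, the other triacylglycerol synthase, had log2 fold changes of -1.51 (edgeR adjusted p 1.69e-06, SE 0.25) in U2OS and -0.71 (SE 0.23) in U2OS-AsiSI. LIPE, hormone-sensitive lipase, had -0.63 (SE 0.08) in both.

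Other esterases of drugs and xenobiotics went both ways, as did all genes, with 35.4% higher and 32.6% lower in U2OS-AsiSI and 34.5% and 32.4% in U2OS. Of 12 listed, 7 were tested in U2OS-AsiSI, 3 higher and 3 lower (median 0.21). In U2OS 8 were tested, 2 higher and 3 lower (median -0.04), and with library totals alone 3 were higher and 1 lower (median 0.16). ESD fell by 0.32 in U2OS and 0.33 in U2OS-AsiSI on the log2 scale, while CMBL rose by 0.57 and 0.21 and APEH by 0.34 and 0.37. Among nuclear receptors and factors known to bear on CES1, 6 of 12 were tested in each line, with 3 higher and 3 lower, beside the same shares of all genes. PPARA, a fatty acid receptor, fell from 97.6 ± 3.5 to 63.0 ± 0.55 CPM in U2OS, with a log2 fold change of -0.66 (edgeR adjusted p 5.52e-18, SE 0.04), and had -0.54 (SE 0.05) in U2OS-AsiSI. NR3C1, the glucocorticoid receptor, fell by 0.36 and 0.31. NFE2L2, a factor of the response to electrophiles, changed by -0.23 and -0.25, and neither call held when libraries were scaled by totals alone (-0.03, adjusted p 0.475, and -0.06, adjusted p 0.139).

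Pseudogenes as classes went both ways, beside 35.4% of all genes higher and 32.6% lower in U2OS-AsiSI and 34.5% and 32.4% in U2OS. Of 2587 unprocessed pseudogenes, the type of CES1P2, 182 were tested in U2OS-AsiSI: 56 were higher and 39 lower, the median log2 fold change was 0.05, and 1, CES1P2, reached 8-fold. In U2OS 56 of 189 were higher and 48 lower, and 3 reached 8-fold. Of 854 transcribed unprocessed pseudogenes, the type of CES1P1, 279 were tested in U2OS-AsiSI, with 80 higher, 97 lower and a median of -0.02. In U2OS 93 of 281 were higher and 96 lower. Processed pseudogenes, which arise from reverse-transcribed RNA, had 101 of 321 higher and 68 lower in U2OS-AsiSI and 103 of 345 higher and 84 lower in U2OS.

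Over the 12 libraries, 5 of 21519 genes compared had the log2 CPM most like that of CES1P2: SH2D2A (Pearson's r 0.9951), HMGA1P4 (0.995), AC002480.1 (0.9949), NR2F2-AS1 (0.9942) and AC091138.1 (0.9941). All points share the libraries and their 4 groups. SH2D2A, which encodes an adaptor protein of T cells (chromosome 1, minus strand), went from 0.182 ± 0.095 to 3.96 ± 0.236 CPM (SD, n = 3) in U2OS and from 0.41 ± 0.0991 to 7.42 ± 0.334 in U2OS-AsiSI. The genes were chosen for this likeness, so their values are a description. The other 4 had smaller fold changes. NR2F2-AS1, an antisense RNA, had log2 fold changes of 1.18 (SE 0.05) in U2OS and 1.16 (SE 0.05) in U2OS-AsiSI. AC002480.1 had 2.10 (SE 0.19) and 1.73 (SE 0.16), AC091138.1 0.99 (SE 0.11) and 0.93 (SE 0.11), and HMGA1P4 0.64 (SE 0.07) and 0.55 (SE 0.07). None of the 5 lies on chromosome 16.

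**Figure D5:**
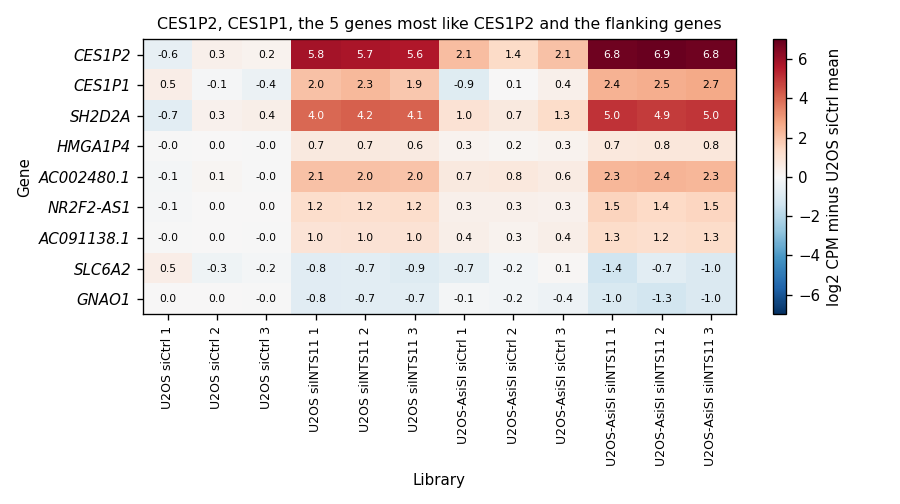
Log2 CPM (prior count 2) of CES1P2, CES1P1, the 5 genes most like CES1P2 and the flanking genes SLC6A2 and GNAO1 in each library, minus the U2OS siCtrl mean. CES1P2 and the 5 genes are higher in all 6 siINTS11 libraries, and SLC6A2 and GNAO1 lie below the U2OS siCtrl mean there.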

How the data were processed

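TT-seq libraries of U2OS and U2OS-AsiSI cells were grouped and numbered by the sample titles. The authors deposited raw read counts per gene (featureCounts columns, per the file headers) over whole gene spans, introns included. Trimmomatic 0.36, STAR 2.7, featureCounts and hg38 are named in the submitters' processing notes, and strand, duplicate and multi-mapping settings are not given in the sources used here. Every count column was matched to a sample (0 left over). Depth was 20704611 to 38065726 counts, and without molecular identifiers a read may not be an independent molecule.

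Genes were tested with edgeR 4.0.16 (R 4.3.3): filterByExpr, TMM, robust glmQLFit and two-sided glmQLFTest on the libraries compared, with Benjamini-Hochberg adjustment over all genes tested and a threshold of 0.05. The SE is the size of the log2 fold change divided by the root of the F statistic. The test was also run on data simulated from its own model with few changed genes. That does not check the scaling where many genes change, as here. Levels used TMM over 12 libraries. Transcripts were aligned with Biopython 1.88, and 55454 gene symbols (91.5%) had a GENCODE 29 type. Figures used matplotlib 3.10.9.

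Named genes are the members, INTS11, the nearest protein-coding genes and those changed 2-fold within 500 kb, all other carboxylesterases, up to 3 genes per list with the smallest adjusted p in U2OS, and the 5 genes most correlated with CES1P2. Members and lists were chosen with earlier results of these data known. Alternatives were library totals alone, median-of-ratios size factors, no filter, a mean count of at least 50, DESeq2 1.42.0, the replicate number as a block and each library left out.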

Additional observations from a re-analysis of the deposited data

How the results depend on the processing

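Of 79 alternative fold changes of CES1P2 and CES1P1 that carry a test, 76 kept their direction and side of the threshold, and 35 that carry none kept their direction. The other 3 are those of CES1P1 between the lines under siINTS11, which stayed positive and lost the call with DESeq2 (0.52, adjusted p 0.0609) and without replicate 3 of U2OS siINTS11 or of U2OS-AsiSI siINTS11 (from 0.44 to 0.63 over the libraries left out). CES1P2 lay between 4.85 and 5.28 on the log2 scale in U2OS-AsiSI and between 5.80 and 6.38 in U2OS, and CES1P1 between 2.05 and 2.52 in U2OS (adjusted p from 1.26e-15 to 1.38e-07). All these fold changes are refits of the same libraries. Their p-values keep the limits given above from the choice of members and, where one was used, from the count filter. The difference between the lines for CES1P2 ran from -1.31 to -0.74 (adjusted p from 0.0829 to 0.423). The 18 alternatives for this difference and the 16 for that of CES1P1 are among the 76. They kept their side of the threshold because none was called. With library totals alone 72.4% of called genes were higher in U2OS-AsiSI and 74.3% in U2OS, against 52.1% and 51.6%. Between the lines it was 67.4% under siCtrl and 62.8% under siINTS11, against 50.9% and 51.0%.

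The number of genes whose siINTS11 effect differed between the lines, 832, fell to 447 with median-of-ratios size factors and 423 with DESeq2, of which 39.6% and 40.9% were higher in U2OS-AsiSI, against 19.7%. The majority turned to higher with the filter at a mean of 50 reads (67%), with no filter (56.6%) and without replicate 3 of U2OS siCtrl (53.6%). Leaving out a library gave 286 to 946, and 286 to 502 without replicate 1 or 3 of U2OS siCtrl, any of U2OS siINTS11, replicate 1 or 2 of U2OS-AsiSI siCtrl, or replicate 2 or 3 of U2OS-AsiSI siINTS11. The cause was not tested. With the replicate number as a block it was 1281. Same-numbered samples correlated from -0.108 to 0.137 in their deviations from the group means, which does not tell whether they were handled together. The block changed no call of a member. The stricter filter removed CES1P1 from the siINTS11 comparisons and CES1P2 from that under siCtrl, and DESeq2 gave no adjusted p for CES1P2 under siCtrl or for the CES1P1 difference. Depth limits CES1 and CES5A.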
